A study of Homo sapiens with 18 samples.

Results

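ATF4 and 42 genes that work with it in amino acid supply were followed in the breast cancer line SKBR3 under the drug lapatinib. The list holds 13 regulators and stress effectors, 10 enzymes of amino acid and folate metabolism, 7 amino acid transporters, and 13 genes of tRNA export and tRNA charging in the cytosol. Each gene was found through the array's probe annotation and kept where at least 1 of its probes was above background on 3 or more of the 18 arrays. That left 37 of the 43 genes, among 12547 genes tested on the whole array. Of the 37, 35 were above background on all 18 arrays, CHAC1 on 6 and SLC1A4 on 7. No probe was named for GPT2 or CARS1, the probes of SESN2, STC2 and VLDLR were above background on 0 arrays, and the probe of SLC7A11 was above it on 2. RefSeq lists pseudogenes of ATF4, ASNS, MTHFD2, PSAT1, PSPH, SLC7A5 and NARS1, and whether their RNA adds to these probes was not tested.

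ATF4 is a transcription factor whose protein is made mainly when the translation factor eIF2 is phosphorylated, which happens when amino acids run short, when unfolded protein gathers in the endoplasmic reticulum, or when haem or viral RNA sensors fire. With partners of the C/EBP family, ATF4 binds a composite element in its target promoters and raises genes that make amino acids, import them and load them onto tRNA. DDIT3 (CHOP), TRIB3 and CHAC1 are stress targets further along the route, and PPP1R15A (GADD34) directs the phosphatase that restores eIF2. In ERBB2-amplified breast cancer cells, lapatinib blocks the kinases ERBB2 and EGFR, which lie upstream of the growth control by mTORC1, a further known input to ATF4.

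The 6 groups were resistant SKBR3 cells in basal medium, at 0.1 µM and at 1 µM lapatinib, and parental SKBR3 cells in basal medium, at 0.1 µM and at 1 µM lapatinib, with 3 arrays each. The labels name the line and the treatment; how the resistant line was derived, whether it is a clone, how long the drug was given and whether replicates were separate cultures are not given in the sources used here. P-values therefore measure the spread between arrays, which may be technical. Mean signal per array ran between 417 and 675 and was lower in resistant than in parental cells: it averaged 481 ± 40.5, 425 ± 8.16 and 438 ± 8.75 (SD, n = 3) in resistant cells at basal, 0.1 and 1 µM, and 646 ± 25.9, 533 ± 21.2 and 505 ± 25.0 in parental cells. The background signal was between 70.4 and 93.6, and replicates correlated across genes at r = 0.986 to 0.996. All 7 markers of ERBB2-amplified luminal epithelium were above background on all 18 arrays, with ERBB2 at 14.9 to 15.5 on the log2 scale. Of 5 fibroblast markers 3 were above it on 0 arrays, DCN on 3 and COL1A1 on 11, at log2 values of up to 6.96. Of the 3 leukocyte markers with a probe, PTPRC was above it on 0 arrays, CD3E on 2 and CD14 on 15, at values of up to 6.99. The 3 endothelial markers were above it on all arrays, at log2 values of 6.51 to 7.76. Levels below are log2 normalised intensities, changes are differences of group means on that scale with the standard error (SE), and rose, fell, higher or lower stand for an adjusted p below 0.05 in limma's moderated test, adjusted by the Benjamini-Hochberg method over all 12547 genes. A probe reports a gene's share of the RNA hybridised, so a smaller amount per cell cannot be told apart from more RNA of other genes.

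The element bound by ATF4 with C/EBP partners was searched as TGATGNAA on both strands in the RefSeq promoter windows (build GRCh38.p14, 250 bases before to 50 after the start). It was found for 15 of the 37 listed genes that have a window (40.5%), against 1217 of 27305 genes in the whole table (4.46%). Counted by window, 15 of 60 held it (25%), against 3.62% of all windows. The list was drawn up around ATF4 and its targets, so the choice of genes itself favours the element. By role the element was found for 3 of 13 regulators, 1 of 7 enzymes, 4 of 6 transporters and 7 of 11 genes of tRNA export and charging. GPT2, PSPH, SHMT2, SLC7A11, LARS1 and YARS1 have no window there. The stretches below are those of the 7 genes that held the element and passed the test in at least 1 comparison, with the element in capitals, on the strand of the gene (where the capitals start with TT, the element lies on the other strand).
ASNS, chr7:97872449-97872496, minus strand, element starting 68 bases before the start: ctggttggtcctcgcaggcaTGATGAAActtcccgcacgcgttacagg
AARS1, chr16:70289666-70289713, minus strand, 187 bases before the start: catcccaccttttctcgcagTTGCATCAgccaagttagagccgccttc
GARS1, chr7:30594825-30594872, plus strand, 33 bases before the start: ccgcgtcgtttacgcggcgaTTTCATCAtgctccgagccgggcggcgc
IARS1, chr9:92293698-92293745, minus strand, 13 bases before the start: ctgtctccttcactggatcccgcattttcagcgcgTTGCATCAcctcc
MARS1, chr12:57488054-57488081, plus strand, 4 bases before the start: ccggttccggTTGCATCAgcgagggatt
SLC7A1, chr13:29595664-29595691, minus strand, within the 50 bases after the start: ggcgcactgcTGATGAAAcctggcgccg
SLC3A2, chr11:62881726-62881748, plus strand, within the 50 bases after the start: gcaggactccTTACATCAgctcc
The element has the same 8 letters in ASNS, SLC7A1 and, on the other strand, GARS1. It is also the same among AARS1, IARS1 and MARS1. That of SLC3A2 differs from both in the free base. A match of letters describes the window and does not show that a factor binds there.

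In parental cells PPP1R15A and DDIT3 rose and PSAT1, CEBPB and SHMT2 fell at both doses. At 0.1 µM against basal, 2 of the 37 genes rose (5.93% of all genes tested did) and 8 fell (5.34% of all genes); together 27% of the listed genes passed, against 11.3% of all genes. Their median change was -0.07, against 0.00 over all genes. At 1 µM, 9 rose (14.3% of all genes) and 4 fell (13.6%), or 35.1% against 28%, with a median of 0.07 against 0.01. From 0.1 µM, 3 were higher at 1 µM (3.09% of all genes) and 0 were lower by limma (2.42% of all genes), where 1 was lower at an unadjusted p below 0.05; that is 8.11% against 5.52%. The count at 0.1 µM was unstable: it was 10 with all arrays and between 3 and 5 with any 1 of the 6 arrays left out, lowest without parental basal replicate 2. The count at 1 µM was 13 with all arrays and 8 without parental 1 µM replicate 3.

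In resistant cells PPP1R15A rose and CEBPB and PCK2 fell at both doses. At 0.1 µM, 1 rose (4.02% of all genes) and 2 fell (3.3%), or 8.11% against 7.32% of all genes. At 1 µM, 1 rose (10.9%) and 5 fell (12.1%), or 16.2% against 23.1%. At 1 against 0.1 µM, 3 were lower (3.62%) and 0 higher by limma (2.06%), also 0 at an unadjusted p below 0.05; that is 8.11% against 5.68%. At 0.1 µM the count of 3 dropped to 1 without resistant basal replicate 2 or resistant basal replicate 3. Among the comparisons of doses within a line, the share of called genes exceeded that of all genes most in parental cells at 0.1 µM against basal. That share rests on the unstable count given above, which was 3 to 5 with 1 array left out. The share of all genes is not given for those settings, so nothing particular is read from it.

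Between the lines, 3 genes were higher (7.24% of all genes) and 2 lower (8.25%) in resistant than in parental basal cells, or 13.5% against 15.5%. At 0.1 µM, 6 were higher (9.77%) and 5 lower (10.4%), or 29.7% against 20.1%. At 1 µM, 1 was higher (9.32%) and 9 were lower (11.9%), or 27% against 21.3%. The basal count of 5 was 3 without parental basal replicate 2 or resistant basal replicate 2. These comparisons use the same arrays as the responses to the drug.

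Groups of 3 arrays often failed to overlap on this platform, so non-overlap in the values below is a description. In resistant cells the arrays did not overlap for 7 of the 37 genes at 0.1 µM against basal (20.1% of all genes), for 13 at 1 µM against basal (38.1%) and for 8 at 1 against 0.1 µM (20.2%). In parental cells the counts were 16 (30.5% of all genes), 17 (42.7%) and 13 (27.4%). Between resistant and parental cells they were 12 at basal (33.7%), 14 at 0.1 µM (30.5%) and 15 at 1 µM (38.9%).

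**Figure D1:**
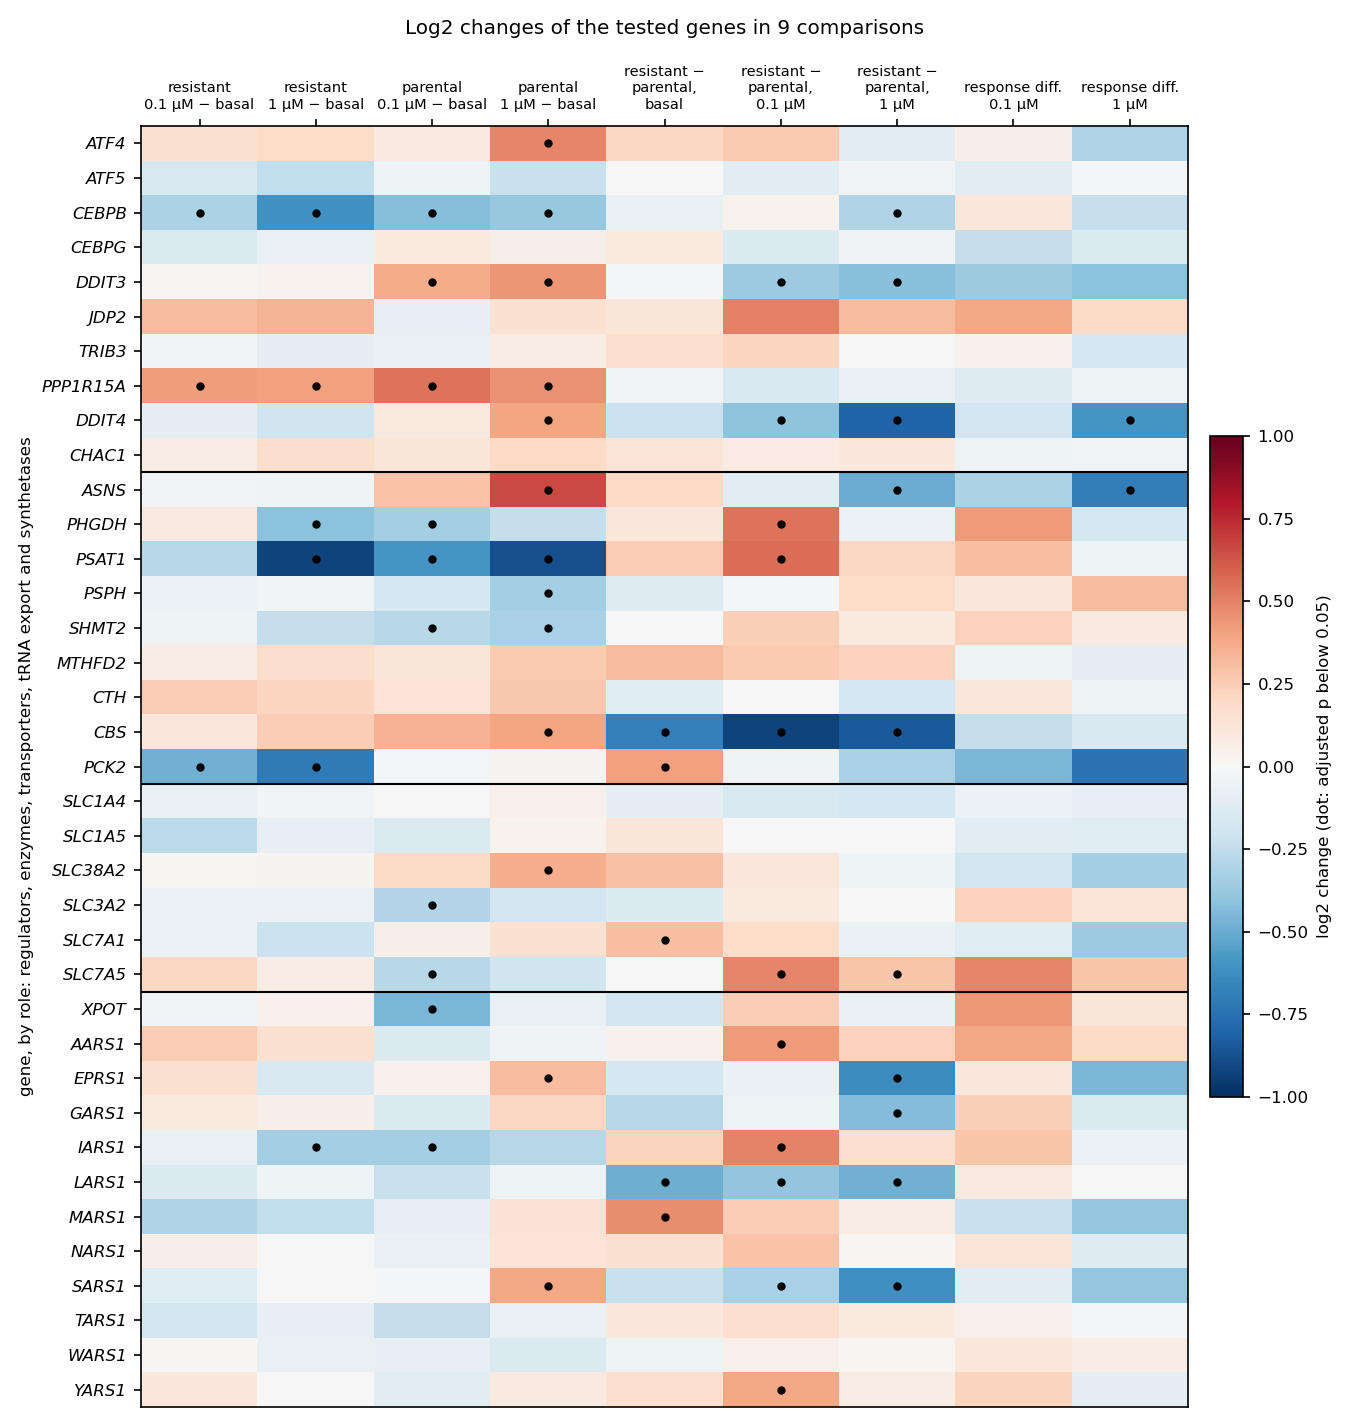
Log2 changes of the 37 tested genes, in rows grouped by role, in 9 comparisons, in columns; red is higher and blue lower in the treated or resistant cells, and a black dot marks an adjusted p below 0.05. The blue row of PSAT1 under drug and of CBS between the lines, and the red row of PPP1R15A under drug in both lines, stand out.

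Most of the upward calls depended on how arrays were scaled. Quantile normalisation, used for the values here, gives every array the same distribution; scaling each array by its median instead shifted the median of all genes by -0.17 at 0.1 µM and -0.14 at 1 µM against basal in parental cells, by -0.08 and -0.06 in resistant cells, and by -0.19 between resistant and parental basal cells. The brightest 25% of genes, where many of the listed genes lie, shifted by -0.31 at each dose in parental cells. Of 26 upward calls, 24 were lost or turned under median scaling, the exceptions being PHGDH and PSAT1 in resistant against parental cells at 0.1 µM. Of 40 downward calls, 3 were lost. In the comparisons with basal and between the lines, that scaling shifted the brightest 25% of genes by -0.36 to -0.13. A fall there could hardly be lost under it, so holding under every alternative says less for a fall than for a rise. Under that scaling 0 of the listed genes rose and 18 fell in parental cells at 0.1 µM, and 0 rose and 13 fell at 1 µM. Of all 12547 genes, 240 rose and 3405 fell at 0.1 µM, and 764 rose and 3578 fell at 1 µM. In resistant cells 0 of the listed genes rose and 5 fell at 0.1 µM, and 0 rose and 9 fell at 1 µM. Of all genes, 156 rose and 886 fell at 0.1 µM, and 752 rose and 1856 fell at 1 µM. In the comparison of resistant with parental cells 0 of the listed genes were higher and 16 lower at basal, 2 and 7 at 0.1 µM, and 0 and 10 at 1 µM. Over all genes these counts were 316 and 3856, 474 and 2120, and 524 and 2180. Under that scaling genes of the whole array thus fell far more often than they rose. The listed genes' median in parental cells was then -0.36 at 0.1 µM and -0.24 at 1 µM, below the shift of all genes at each dose. Against the brightest 25% of genes (-0.31 at each dose) their median was lower at 0.1 µM and higher at 1 µM. Each upward change below is thus relative to a common distribution of array values.

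Among the regulators, PPP1R15A rose and CEBPB fell at both doses in both lines, and ATF4, DDIT3 and DDIT4 rose at 1 µM in parental cells. Of the 10 regulators tested, 1 rose and 1 fell in resistant cells at each dose, and in parental cells 2 rose and 1 fell at 0.1 µM and 4 rose and 1 fell at 1 µM. Of all genes, 4.02% rose and 3.3% fell at 0.1 µM, and 10.9% and 12.1% at 1 µM, in resistant cells. In parental cells these shares were 5.93% and 5.34% at 0.1 µM, and 14.3% and 13.6% at 1 µM. ATF4 mRNA, whose protein is set mainly by translation, read 14.00, 14.09 and 13.95 in resistant basal cells, 14.08, 13.91 and 14.50 at 0.1 µM, and 14.22, 14.20 and 14.18 at 1 µM. In parental cells ATF4 read 13.86, 13.84 and 13.72 at basal, 13.88, 13.95 and 13.88 at 0.1 µM, and 14.19, 14.26 and 14.45 at 1 µM. The 3 parental arrays at 1 µM lay above all 6 other parental arrays, while in resistant cells the arrays at 0.1 µM spanned the range of both other groups and those at 1 µM lay above the basal ones. At 1 µM ATF4 differed from basal by 0.18 ± 0.11 (adjusted p = 0.287) in resistant cells and rose by 0.49 ± 0.11 (1.41-fold, adjusted p = 0.00168) in parental cells; the difference between these responses was -0.31 ± 0.16 (adjusted p = 0.446). Under median scaling the parental change in ATF4 was 0.20 (adjusted p = 0.198). Its dimmer probes gave 0.57 and -0.09 in resistant and 0.67 and 0.17 in parental cells at 1 µM, so the probes do not give a single size of change.

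PPP1R15A, the eIF2 phosphatase subunit, read 9.81, 9.72 and 9.60 in resistant basal cells, 9.97, 10.20 and 10.21 at 0.1 µM, and 10.24, 10.08 and 10.04 at 1 µM. In parental cells it read 9.68, 9.81 and 9.72 at basal, 10.16, 10.32 and 10.38 at 0.1 µM, and 10.26, 10.07 and 10.25 at 1 µM. Every treated array lay above every basal array of its line. The rise was 0.42 ± 0.10 (adjusted p = 0.00969) at 0.1 µM and 0.41 ± 0.10 (adjusted p = 0.00345) at 1 µM in resistant cells, and 0.54 ± 0.10 (adjusted p = 0.000432) and 0.46 ± 0.10 (adjusted p = 0.000941) in parental cells. Between 1 and 0.1 µM PPP1R15A differed by -0.01 ± 0.10 in resistant and by -0.09 ± 0.10 in parental cells, within the error. Without resistant basal replicate 3 the resistant change of PPP1R15A at 0.1 µM was 0.36 (adjusted p = 0.067), and median scaling left changes of 0.16 to 0.29 at the 2 doses in both lines, of which 0 passed.

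CEBPB, a C/EBP factor that pairs with ATF4, moved the other way. It read 13.48, 13.54 and 13.53 in resistant basal cells, 13.17, 13.23 and 13.22 at 0.1 µM, and 12.93, 12.89 and 12.91 at 1 µM, with no overlap between any 2 doses. The parental arrays read 13.56, 13.71 and 13.51 at basal, 13.25, 13.17 and 13.08 at 0.1 µM, and 13.23, 13.26 and 13.15 at 1 µM, so the treated arrays lay below the basal ones and overlapped each other. CEBPB fell by 0.61 ± 0.09 (1.52-fold lower, adjusted p = 7.44e-06) at 1 µM in resistant cells and by 0.38 ± 0.09 (1.30-fold lower, adjusted p = 0.00165) in parental cells. It was lower in resistant than in parental cells at 1 µM by 0.30 ± 0.09 (adjusted p = 0.0134), but the difference between the responses was -0.23 ± 0.12 (adjusted p = 0.466). The fall at 1 µM held under every alternative in both lines, while the calls of the smaller falls in resistant cells at 0.1 µM and from 0.1 to 1 µM were each lost without any of several single arrays (4 of 6 and 5 of 6), and the line difference was -0.28 (adjusted p = 0.06) without parental 1 µM replicate 2.

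DDIT3, the pro-death factor CHOP, and DDIT4, the mTORC1 inhibitor REDD1, separated the lines under drug. DDIT3 read 7.32, 7.45 and 7.55 in resistant basal cells, 7.49, 7.54 and 7.34 at 0.1 µM, and 7.33, 7.50 and 7.60 at 1 µM. In parental cells DDIT3 read 7.44, 7.39 and 7.51 at basal, 7.71, 7.94 and 7.80 at 0.1 µM, and 7.95, 7.91 and 7.81 at 1 µM. The treated parental arrays lay above all others and the resistant ones overlapped at every dose. At 1 µM DDIT3 differed from basal by 0.03 ± 0.11 (adjusted p = 0.883) in resistant cells and rose by 0.44 ± 0.11 (adjusted p = 0.00332) in parental cells; the parental change was 0.28 (adjusted p = 0.0623) under median scaling. The parental rise at 0.1 µM (0.37 ± 0.11, adjusted p = 0.0307) was lost without any of 5 of the 6 arrays. It was lower in resistant than in parental cells by 0.36 ± 0.11 (adjusted p = 0.0216) at 0.1 µM and by 0.42 ± 0.11 (adjusted p = 0.00753) at 1 µM; the difference between the responses of DDIT3 at 1 µM, -0.41 ± 0.16, did not pass (adjusted p = 0.259). Leaving out parental 0.1 µM replicate 2 or resistant 0.1 µM replicate 3 took the line difference in DDIT3 at 0.1 µM to -0.30 (adjusted p = 0.108 and 0.094), and leaving out resistant 1 µM replicate 1 took that at 1 µM to -0.35 (adjusted p = 0.0531).

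DDIT4 read 11.61, 11.26 and 11.51 in resistant basal cells, 11.44, 11.19 and 11.47 at 0.1 µM, and 11.30, 11.30 and 11.20 at 1 µM. In parental cells DDIT4 read 11.58, 11.65 and 11.80 at basal, 11.81, 11.72 and 11.78 at 0.1 µM, and 12.13, 12.04 and 12.03 at 1 µM. The parental arrays at 1 µM lay above the other 15, and the lines overlapped only at basal. DDIT4 was lower in resistant than in parental cells by 0.80 ± 0.10 (1.74-fold lower, adjusted p = 8.58e-07) at 1 µM and by 0.40 ± 0.10 (adjusted p = 0.00469) at 0.1 µM, and both calls held under every alternative. At 1 µM it differed from basal by -0.20 ± 0.10 (adjusted p = 0.173) in resistant cells and rose by 0.39 ± 0.10 (adjusted p = 0.00367) in parental cells. The difference between these responses was -0.59 ± 0.14 (adjusted p = 0.0481), a call lost without any 1 of 11 of the 12 arrays and under median scaling (-0.37, adjusted p = 0.367), where the parental change in DDIT4 was 0.02.

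The other 5 regulators, ATF5, CEBPG, JDP2, TRIB3 and CHAC1, passed in 0 of the 11 comparisons. The largest change among them was that of JDP2, a basic leucine zipper repressor, in resistant against parental cells at 0.1 µM (0.51 ± 0.19, adjusted p = 0.0573). TRIB3, a pseudokinase induced by ATF4 and CHOP, averaged between 11.81 and 12.06 in the 6 groups. CHAC1, which breaks down glutathione, averaged 6.25 to 6.55, near background, where a change can be understated.

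**Figure D2:**
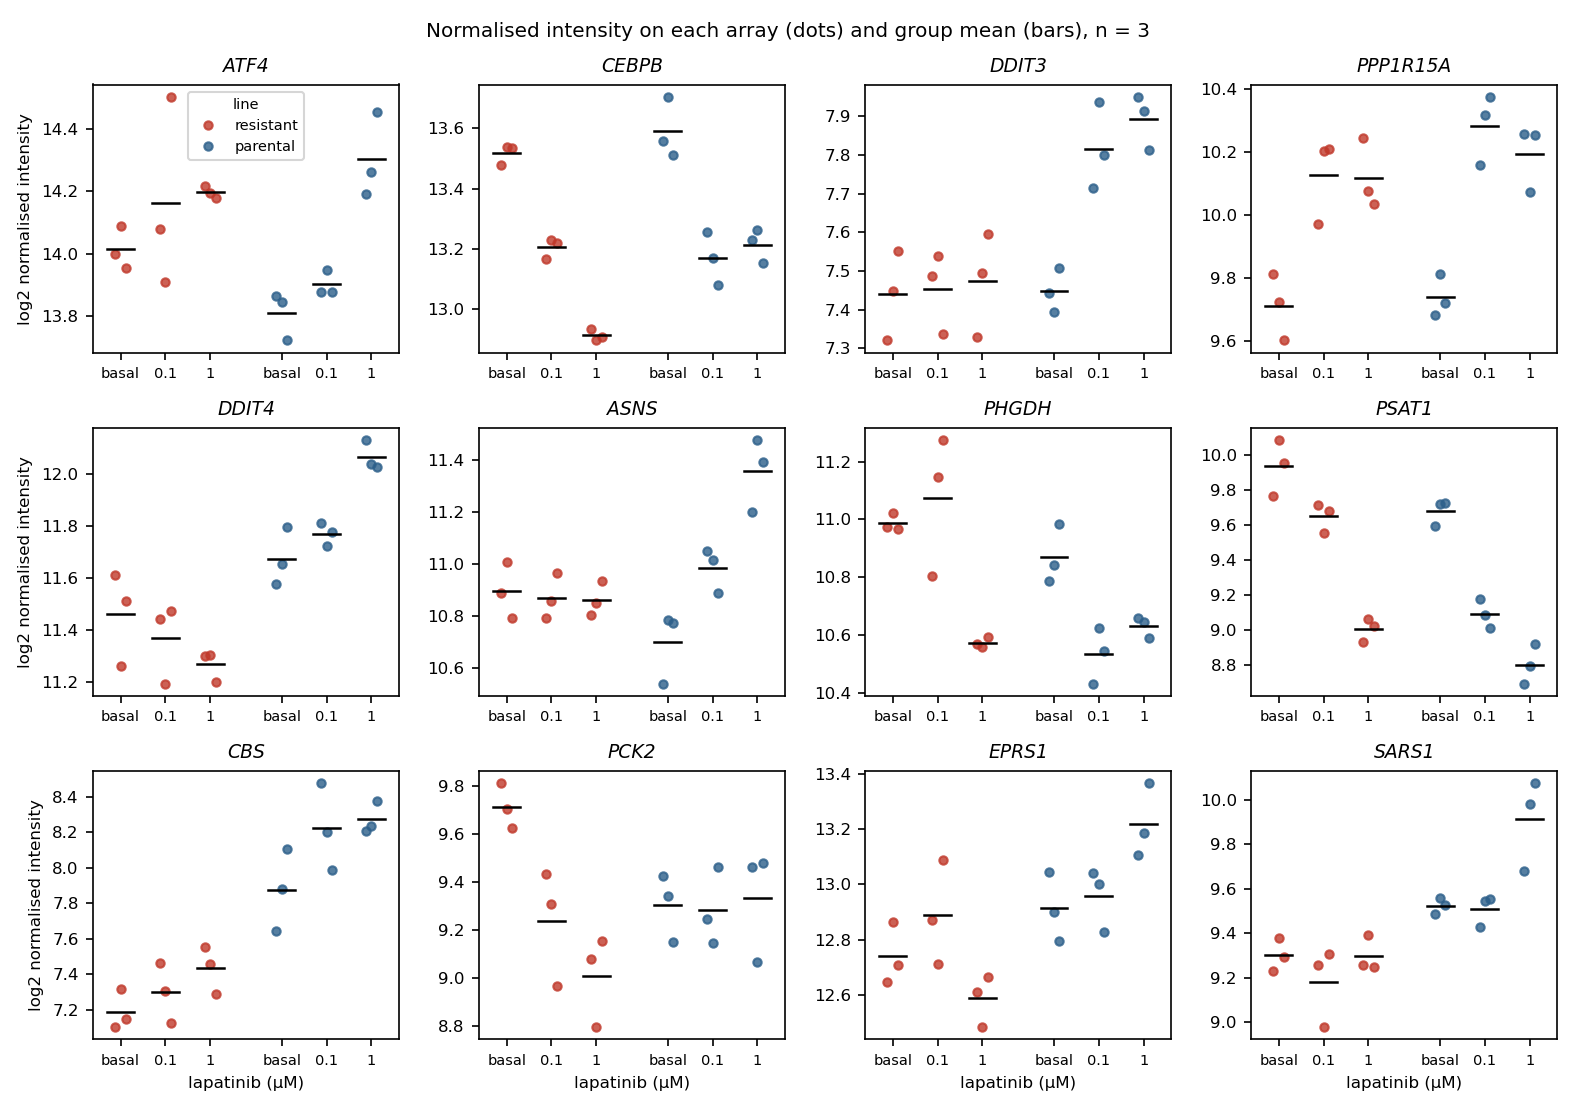
Log2 normalised intensity of 12 genes on each array (dots) with group means (bars, n = 3), resistant cells in red on the left and parental cells in blue on the right of each panel, by lapatinib dose; each panel has its own vertical range, which does not start at 0. DDIT4 and ASNS climb with dose in parental cells and not in resistant cells, while PSAT1 falls in both.

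Among the 9 enzymes tested, asparagine synthetase rose in parental cells, PSAT1 of the serine route fell at 1 µM in both lines, and CBS was lower in resistant cells at every dose. Of the 9, 0 rose and 1 fell in resistant cells at 0.1 µM (4.02% and 3.3% of all genes), and 0 rose and 3 fell at 1 µM (10.9% and 12.1%). In parental cells 0 rose and 3 fell at 0.1 µM (5.93% and 5.34%), and 2 rose and 3 fell at 1 µM (14.3% and 13.6%). ASNS, which makes asparagine and is a textbook ATF4 target, read 10.89, 11.01 and 10.79 in resistant basal cells, 10.79, 10.86 and 10.96 at 0.1 µM, and 10.80, 10.85 and 10.93 at 1 µM. In parental cells ASNS read 10.54, 10.78 and 10.77 at basal, 11.05, 11.02 and 10.89 at 0.1 µM, and 11.20, 11.48 and 11.39 at 1 µM. The 3 parental dose groups did not overlap one another, and the 3 resistant groups did. At 1 µM ASNS differed from basal by -0.04 ± 0.10 (adjusted p = 0.854) in resistant cells and rose by 0.66 ± 0.10 (1.58-fold, adjusted p = 8.18e-06) in parental cells.

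The difference between the ASNS responses was -0.69 ± 0.14 (adjusted p = 0.0139), and ASNS was lower in resistant than in parental cells at 1 µM by 0.50 ± 0.10 (adjusted p = 0.000496). Across all genes 0.685% passed this test of the responses at 1 µM, and of the 37 listed genes ASNS and DDIT4 did (5.41%), both with the smaller response in resistant cells. At 0.1 µM 0 of the 37 and 0.00797% of all genes passed it by limma, with 8 of the 37 at an unadjusted p below 0.05. The share of all genes at that unadjusted cut is not given, here or above, so nothing is read from such counts. The ASNS call on the responses was lost without parental 1 µM replicate 2 (-0.63, adjusted p = 0.0635), resistant 1 µM replicate 1 (-0.67, adjusted p = 0.0531) or resistant basal replicate 2 (-0.64, adjusted p = 0.055), and under median scaling it was -0.48 (adjusted p = 0.223), with a parental change of 0.31 (adjusted p = 0.0632). A second, dimmer ASNS probe gave 0.07 in resistant and 0.37 in parental cells at 1 µM, a difference of -0.30.

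Serine is made from a glycolytic intermediate by PHGDH, PSAT1 and PSPH in turn, and SHMT2 and MTHFD2 pass its carbon to mitochondrial folate. PSAT1 had the largest fall of the 37 genes at 1 µM in both lines. It read 9.76, 10.08 and 9.95 in resistant basal cells, 9.71, 9.56 and 9.68 at 0.1 µM, and 8.93, 9.06 and 9.03 at 1 µM. In parental cells PSAT1 read 9.59, 9.72 and 9.73 at basal, 9.18, 9.09 and 9.02 at 0.1 µM, and 8.70, 8.80 and 8.92 at 1 µM. The dose groups did not overlap within either line. PSAT1 fell by 0.93 ± 0.10 (1.90-fold lower, adjusted p = 7.04e-08) at 1 µM in resistant cells and by 0.88 ± 0.10 (1.83-fold lower, adjusted p = 1.36e-07) in parental cells, a difference of -0.05 ± 0.14 with a 95% confidence interval of -0.34 to 0.24. At 0.1 µM PSAT1 differed from basal by -0.28 ± 0.10 (adjusted p = 0.0886) in resistant cells and fell by 0.59 ± 0.10 (adjusted p = 0.000201) in parental cells, and it was higher in resistant than in parental cells at that dose by 0.56 ± 0.10 (1.47-fold, adjusted p = 0.000191). The 5 calls of PSAT1 held under every alternative.

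PHGDH, the first enzyme of the route, fell at 1 µM in resistant cells and at 0.1 µM in parental cells. Its responses did not pass the test of a difference between the lines at 0.1 µM (0.42 ± 0.14, adjusted p = 0.384) or at 1 µM (-0.18 ± 0.14, adjusted p = 0.663). It read 10.97, 11.02 and 10.97 in resistant basal cells, 10.81, 11.15 and 11.27 at 0.1 µM, and 10.57, 10.56 and 10.59 at 1 µM. In parental cells it read 10.79, 10.84 and 10.98 at basal, 10.43, 10.63 and 10.55 at 0.1 µM, and 10.66, 10.65 and 10.59 at 1 µM. The resistant arrays at 1 µM lay below the other 6 resistant arrays, and both treated parental groups lay below the basal one. In resistant cells PHGDH fell by 0.41 ± 0.10 (adjusted p = 0.00323) from basal and by 0.50 ± 0.10 (adjusted p = 0.00233) from 0.1 µM. In parental cells it fell by 0.34 ± 0.10 (adjusted p = 0.0286) at 0.1 µM, a call lost without any of 4 of the 6 arrays, and differed by -0.24 ± 0.10 (adjusted p = 0.0826) at 1 µM. At 0.1 µM PHGDH was higher in resistant than in parental cells by 0.54 ± 0.10 (1.45-fold, adjusted p = 0.000276), a call that held under every alternative.

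At 1 µM SHMT2 differed from basal by -0.24 ± 0.09 (adjusted p = 0.0515) in resistant cells and fell by 0.33 ± 0.09 (adjusted p = 0.00577) in parental cells, the second under every alternative. Its parental call at 0.1 µM (-0.28 ± 0.09, adjusted p = 0.0412) was lost without any 1 of the 6 arrays. PSPH, which removes the phosphate in the last step, passed in parental cells at 1 µM alone (-0.34 ± 0.13, adjusted p = 0.0464); the call was lost without any 1 of the 6 arrays, and its second probe gave 0.21. MTHFD2, which was not called in any comparison, had changes of 0.07 to 0.26 under drug, and CTH, the second enzyme of cysteine synthesis from homocysteine, of 0.14 to 0.27. The sign of these values is opposite to that of PSAT1 and SHMT2, but CTH, too, was not called in any comparison. At 0.1 µM its dimmer probes gave 0.14 and -0.03 in parental and 0.12 and -0.02 in resistant cells. At 1 µM they gave 0.15 and 0.21 in parental and 0.20 and 0.07 in resistant cells.

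**Figure D3:**
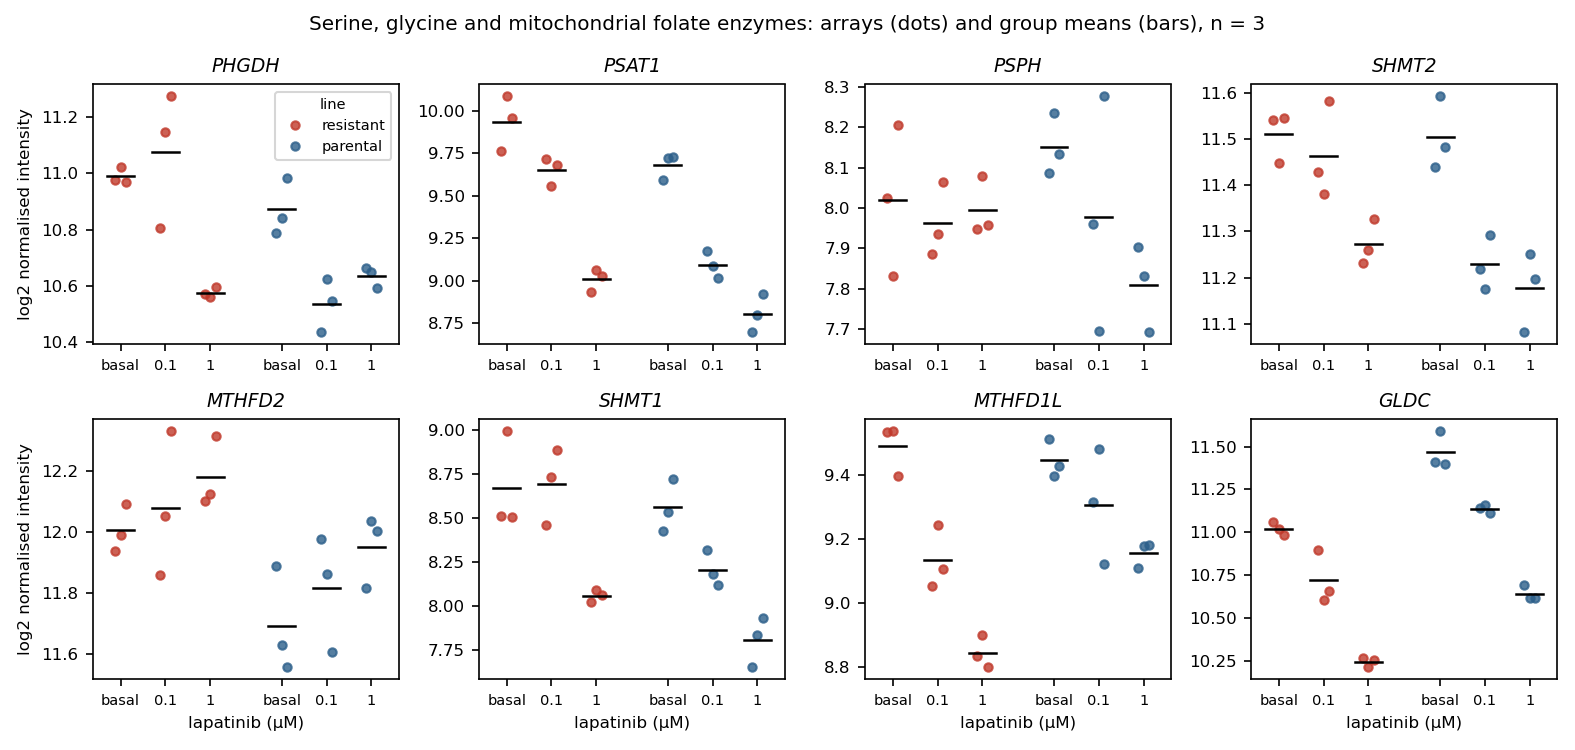
Log2 normalised intensity of PHGDH, PSAT1, PSPH, SHMT2 and MTHFD2 and of 3 further folate and glycine enzymes on each array (dots) with group means (bars, n = 3), resistant cells in red and parental cells in blue, by lapatinib dose; each panel has its own vertical range. PSAT1, SHMT1 and GLDC are lower at 1 µM than at basal in both lines, while MTHFD2 is not.

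CBS, which condenses serine with homocysteine, showed the widest gap between the lines among the 37 genes at each dose. It read 7.10, 7.32 and 7.15 in resistant basal cells, 7.46, 7.30 and 7.12 at 0.1 µM, and 7.56, 7.46 and 7.29 at 1 µM. The parental arrays read 7.64, 7.88 and 8.10 at basal, 8.48, 8.20 and 7.99 at 0.1 µM, and 8.21, 8.23 and 8.38 at 1 µM. All 9 resistant arrays lay below all 9 parental arrays. CBS was lower in resistant than in parental cells by 0.69 ± 0.14 (1.61-fold lower, adjusted p = 0.000654) at basal, by 0.93 ± 0.14 (1.90-fold lower, adjusted p = 1.18e-05) at 0.1 µM and by 0.84 ± 0.14 (1.79-fold lower, adjusted p = 3.91e-05) at 1 µM, and all 3 calls held under every alternative. At 1 µM CBS differed from basal by 0.24 ± 0.14 (adjusted p = 0.215) in resistant cells and rose by 0.40 ± 0.14 (adjusted p = 0.0286) in parental cells, a call lost without any of 4 of the 6 arrays and under median scaling (0.19, adjusted p = 0.33).

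PCK2, the mitochondrial enzyme that makes phosphoenolpyruvate, read 9.81, 9.71 and 9.63 in resistant basal cells, 9.43, 9.31 and 8.97 at 0.1 µM, and 9.08, 8.80 and 9.15 at 1 µM. In parental cells it read 9.43, 9.34 and 9.15 at basal, 9.25, 9.15 and 9.46 at 0.1 µM, and 9.46, 9.07 and 9.48 at 1 µM. The resistant basal arrays lay above all 15 others, and the parental groups overlapped. PCK2 fell in resistant cells by 0.48 ± 0.13 (adjusted p = 0.0237) at 0.1 µM and by 0.71 ± 0.13 (1.63-fold lower, adjusted p = 0.000195) at 1 µM, and differed from basal by 0.03 ± 0.13 (adjusted p = 0.905) at 1 µM in parental cells. The difference between the responses, -0.73 ± 0.19, missed the threshold (adjusted p = 0.0621). The probes of PCK2 disagree: its 2 dimmer probes gave -0.75 and -0.50 in resistant and -0.88 and -0.22 in parental cells at 1 µM, and the mean of all its probes in parental cells was -0.36. All 3 probes thus read lower at 1 µM in resistant cells, while in parental cells they ranged from -0.88 to 0.03. The calls of PCK2 at 0.1 µM and between basal lines (0.41 ± 0.13, adjusted p = 0.0335) were also lost without any of 3 and of 4 of the 6 arrays, and with the mean of the probes.

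Of the 6 transporters tested, 0 rose and 0 fell in resistant cells at either dose by limma (at 1 µM SLC7A1 had the largest change, -0.21 ± 0.09, adjusted p = 0.0872). In parental cells 0 rose and 2 fell at 0.1 µM (5.93% and 5.34% of all genes), and 1 rose and 0 fell at 1 µM (14.3% and 13.6%). The shares of all genes in resistant cells were 4.02% and 3.3% at 0.1 µM, and 10.9% and 12.1% at 1 µM. SLC7A5 and SLC3A2, the light and heavy chains of the LAT1 exchanger for large neutral amino acids, fell at 0.1 µM in parental cells by 0.28 ± 0.09 (adjusted p = 0.0448) and 0.29 ± 0.09 (adjusted p = 0.0431), the first lost without any of 5 of the 6 arrays and the second without any 1 of the 6. A second, dimmer SLC3A2 probe gave -0.10 at 0.1 µM and 0.07 at 1 µM in parental cells. SLC7A5 was higher in resistant than in parental cells at 0.1 µM, where it averaged 12.85 ± 0.07 against 12.36 ± 0.09 (SD, n = 3; change 0.49 ± 0.09, 1.41-fold, adjusted p = 0.000255). At 1 µM it averaged 12.72 ± 0.07 against 12.44 ± 0.05 (change 0.28 ± 0.09, adjusted p = 0.0282), and its second call was lost without any of 4 of the 6 arrays; under median scaling the changes of SLC7A5 were 0.24 and 0.15, and neither passed.

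SLC38A2 (SNAT2), an importer of small neutral amino acids that starvation raises, differed from basal by 0.03 ± 0.11 at 1 µM in resistant cells and rose by 0.36 ± 0.11 (adjusted p = 0.0157) in parental cells, where median scaling gave 0.08. Its call was lost without parental 1 µM replicate 3 (0.35, adjusted p = 0.0541), parental basal replicate 2 (0.30, adjusted p = 0.0906) or parental basal replicate 3 (0.28, adjusted p = 0.105). SLC7A1, the arginine and lysine importer, was higher in resistant than in parental basal cells, at 11.16 ± 0.05 against 10.87 ± 0.11 (SD, n = 3; change 0.30 ± 0.09, adjusted p = 0.0207); the call was lost without parental basal replicate 1 (0.28, adjusted p = 0.0713) or 2 (0.26, adjusted p = 0.104) or resistant basal replicate 2 (0.27, adjusted p = 0.0767), and median scaling gave -0.05. SLC1A5 (ASCT2), the glutamine exchanger, and SLC1A4 were not called in any comparison, with changes under drug of -0.26 to 0.05.

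The genes of tRNA export and charging did not move as a block. Of the 12 tested, 0 rose and 0 fell in resistant cells at 0.1 µM by limma, 0 rose and 1 fell at 1 µM; in parental cells 0 rose and 2 fell at 0.1 µM, and 2 rose and 0 fell at 1 µM. The shares of all genes under drug are those given with the transporters. Between the lines the split was 1 higher and 1 lower at basal (7.24% and 8.25% of all genes). It was 3 higher and 2 lower at 0.1 µM (9.77% and 10.4%), and 0 higher and 4 lower at 1 µM (9.32% and 11.9%). EPRS1, which charges tRNA with glutamate and proline, read 12.65, 12.86 and 12.71 in resistant basal cells, 12.87, 12.71 and 13.09 at 0.1 µM, and 12.61, 12.49 and 12.67 at 1 µM. The parental arrays read 13.04, 12.90 and 12.80 at basal, 13.04, 13.00 and 12.83 at 0.1 µM, and 13.11, 13.18 and 13.37 at 1 µM. At 1 µM the lines did not overlap, and the other doses overlapped. EPRS1 was lower in resistant than in parental cells at 1 µM by 0.63 ± 0.11 (1.55-fold lower, adjusted p = 7.79e-05), under every alternative; its parental rise at 1 µM, 0.31 ± 0.11 (adjusted p = 0.0339), was lost without any of 4 of the 6 arrays and was -0.05 under median scaling.

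SARS1, the seryl-tRNA synthetase, read 9.23, 9.38 and 9.29 in resistant basal cells, 9.26, 8.98 and 9.31 at 0.1 µM, and 9.26, 9.39 and 9.25 at 1 µM. In parental cells SARS1 read 9.49, 9.56 and 9.53 at basal, 9.43, 9.54 and 9.56 at 0.1 µM, and 9.68, 9.98 and 10.07 at 1 µM. Every resistant array lay below every parental array, and the parental arrays at 1 µM lay above the rest. SARS1 was lower in resistant than in parental cells by 0.61 ± 0.11 (1.53-fold lower, adjusted p = 0.000114) at 1 µM, under every alternative, and by 0.33 ± 0.11 (adjusted p = 0.0306) at 0.1 µM, a call lost without parental 0.1 µM replicate 2 (-0.31, adjusted p = 0.092) or 3 (-0.30, adjusted p = 0.0937) or resistant 0.1 µM replicate 2 (-0.23, adjusted p = 0.173). SARS1 rose in parental cells at 1 µM by 0.39 ± 0.11 (adjusted p = 0.00724). That change was 0.31 (adjusted p = 0.0629) without parental 1 µM replicate 3 and 0.11 (adjusted p = 0.572) under median scaling. The difference between the responses of the lines was -0.39 ± 0.15 (adjusted p = 0.266).

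LARS1, the leucyl-tRNA synthetase and a leucine sensor for mTORC1, was lower in resistant than in parental cells at every dose: it averaged 10.73 ± 0.10 against 11.21 ± 0.05 at basal, 10.59 ± 0.22 against 10.99 ± 0.20 at 0.1 µM, and 10.68 ± 0.15 against 11.16 ± 0.04 at 1 µM (SD, n = 3). The changes in LARS1 were -0.49, -0.40 and -0.48 (SE 0.11 each; adjusted p = 0.00293, 0.0116 and 0.00241), and the call at 0.1 µM was lost without parental 0.1 µM replicate 1 (-0.28, adjusted p = 0.112) or resistant 0.1 µM replicate 2 (-0.27, adjusted p = 0.0921). Drug left LARS1 with changes of -0.22 to -0.04, none past the threshold.

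IARS1, AARS1 and YARS1, for isoleucine, alanine and tyrosine, were higher in resistant than in parental cells at 0.1 µM, by 0.50 ± 0.11 (adjusted p = 0.00141), 0.43 ± 0.09 (adjusted p = 0.000661) and 0.39 ± 0.10 (adjusted p = 0.00432). Under median scaling these changes were 0.32, 0.19 and 0.19 and did not pass. IARS1 also fell in resistant cells at 1 µM (-0.34 ± 0.11, adjusted p = 0.0218) and in parental cells at 0.1 µM (-0.34 ± 0.11, adjusted p = 0.0382), calls lost without any of 4 and of 6 of the 6 arrays. GARS1, the glycyl-tRNA synthetase, was lower in resistant than in parental cells at 1 µM by 0.43 ± 0.11 (adjusted p = 0.00676; -0.33 with adjusted p = 0.0642 without parental 1 µM replicate 1). MARS1, for methionine, was higher in resistant than in parental basal cells by 0.47 ± 0.13 (adjusted p = 0.0111), lost without parental basal replicate 1 (0.39, adjusted p = 0.0696) or resistant basal replicate 3 (0.42, adjusted p = 0.0593). XPOT, the exporter of tRNA from the nucleus, fell at 0.1 µM in parental cells by 0.46 ± 0.13 (adjusted p = 0.0248), a call lost without any of 4 of the 6 arrays. NARS1, TARS1 and WARS1 were not called in any comparison.

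The 2 lines' responses at 1 µM rest on separate arrays. Of the 37 genes, CEBPB, PPP1R15A and PSAT1 passed in both, each in the same direction; PHGDH, PCK2 and IARS1 passed in resistant cells alone; and 10 passed in parental cells alone. Passing in one line alone does not show that the lines differ, and of those 13 genes ASNS and DDIT4 passed the test of the difference. The differences between responses at 1 µM were negative for 28 and positive for 9 of the 37 genes, against 6627 and 5920 of all 12547 genes. Their median was -0.09 for the 37 genes, against -0.02 over all genes. The genes share the same arrays, so these signs are not independent counts. Under median scaling these medians were 0.08 for the 37 genes and 0.09 for all genes, and so turned in sign.

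**Figure D4:**
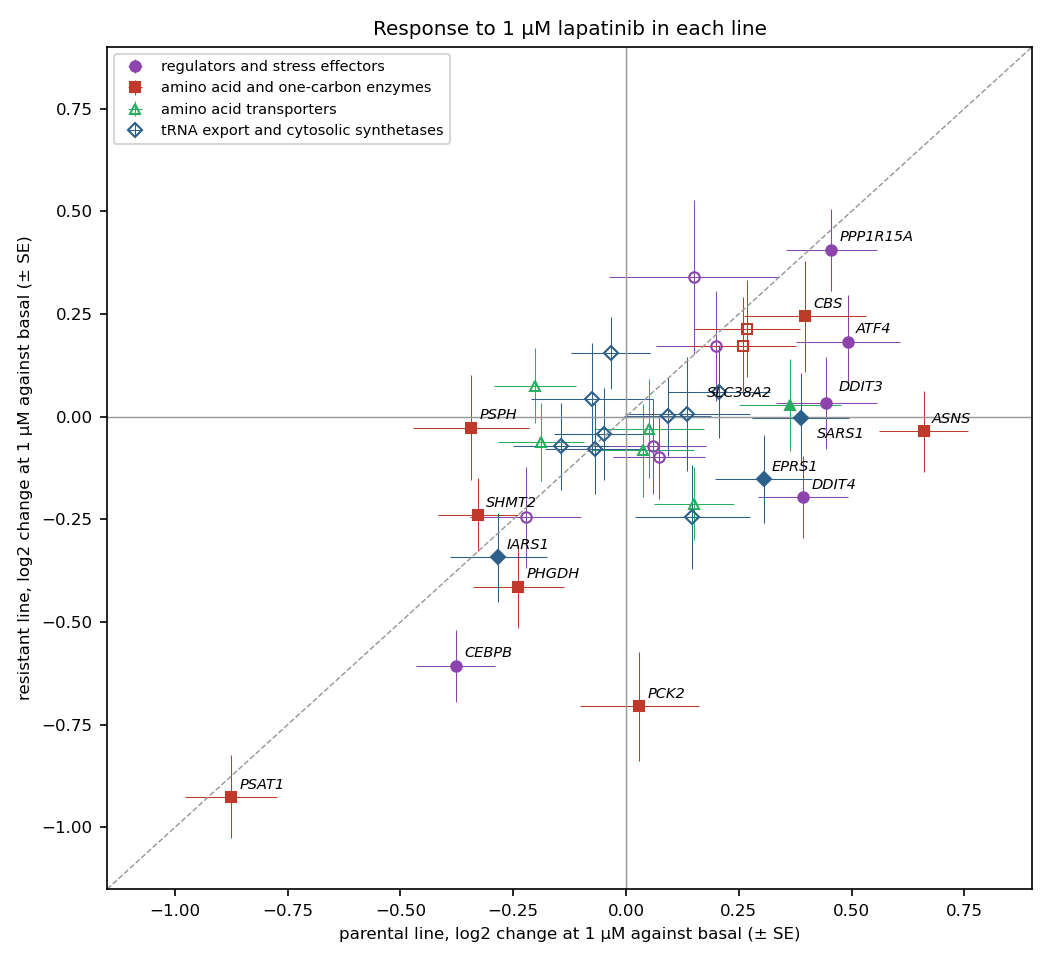
Log2 change at 1 µM lapatinib against basal in resistant cells (vertical) and in parental cells (horizontal) for the 37 tested genes, with SE bars; filled symbols passed the test in at least 1 line, and the dashed line marks equal responses. PSAT1 and PPP1R15A lie near it; ASNS and DDIT4 lie below it, with changes of 0.66 and 0.39 in parental cells, and PCK2 at -0.71 in resistant cells.

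The calls were also counted by the promoter element. Of the 14 tested genes with the element 0 rose and 1 fell in resistant cells at 1 µM, against 1 and 4 of the 19 tested genes whose windows lack it. Of all genes, 10.9% rose and 12.1% fell there. In parental cells at 1 µM, 1 rose (ASNS) and 0 fell of those with it, against 8 and 2 of those without (14.3% and 13.6% of all genes). Between the lines at 1 µM, 0 were higher and 2 lower with it, against 1 and 6 without (9.32% and 11.9% of all genes). These are counts over few genes, and the absence of these letters from a window says nothing of sites elsewhere.

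Genes on related lists gave context. At 1 µM against basal, 10.9% of all genes rose and 12.1% fell in resistant cells, and 14.3% rose and 13.6% fell in parental cells. Under median scaling 752 of all 12547 genes rose and 1856 fell in resistant cells, and 764 rose and 3578 fell in parental cells. The counts of the short lists are set beside these values, and nothing particular is read from them. Of 6 further folate and glycine enzymes, 0 rose and 3 fell in resistant cells and 0 rose and 4 fell in parental cells at 1 µM (0 and 3, and 0 and 5, under median scaling). GLDC, which cleaves glycine, fell by 0.78 ± 0.09 (adjusted p = 2.32e-07) in resistant and by 0.83 ± 0.09 (adjusted p = 6.2e-08) in parental cells. SHMT1, the cytosolic counterpart of SHMT2, fell by 0.61 ± 0.13 (adjusted p = 0.00098) in resistant and by 0.75 ± 0.13 (adjusted p = 6.8e-05) in parental cells. GLDC was also lower in resistant than in parental cells at every dose, by 0.45, 0.42 and 0.40 at basal, 0.1 and 1 µM. These falls in GLDC and SHMT1 also passed under median scaling.

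Of 8 further ATF4 targets, 2 rose and 1 fell in resistant cells and 2 rose and 0 fell in parental cells at 1 µM (2 and 1 in each line under median scaling). NUPR1, a stress cofactor of chromatin, rose by 1.59 ± 0.18 (adjusted p = 1.05e-07) in resistant and by 2.14 ± 0.18 (adjusted p = 4.68e-10) in parental cells, which exceeds the change of any of the 37 tested genes and held under median scaling. SLC6A9, a glycine transporter, rose by 0.45 ± 0.11 (adjusted p = 0.00227) in resistant and by 0.72 ± 0.11 (adjusted p = 7.55e-06) in parental cells. ATF3, a repressor induced by ATF4, was lower in resistant than in parental cells by 1.10, 1.15 and 1.66 at basal, 0.1 and 1 µM (SE 0.11 each; adjusted p = 1.54e-08, 6.24e-09 and 3.78e-12). PYCR1, a proline enzyme, was higher there at basal (0.62 ± 0.15, adjusted p = 0.00375) and at 1 µM (0.61 ± 0.15, adjusted p = 0.00337); the basal call was lost under median scaling. GDF15 and EIF4EBP1 were lower at 1 µM by 0.66 and 0.59.

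Of 12 genes of eIF2 and its kinases, 2 rose and 2 fell in resistant cells and 2 rose and 1 fell in parental cells at 1 µM. Under median scaling 1 rose and 2 fell in resistant cells, and 0 rose and 4 fell in parental cells. EIF2AK2 (PKR), the kinase that senses viral RNA, was lower in resistant than in parental cells by 0.54, 0.68 and 1.05 at basal, 0.1 and 1 µM, with adjusted p = 0.0022, 0.000153 and 2.16e-07. EIF2AK3 (PERK), the kinase of the endoplasmic reticulum, rose by 0.70 ± 0.16 (adjusted p = 0.00178) at 1 µM in resistant cells. In parental cells EIF2AK3 averaged 7.41 at basal and 7.77 at 1 µM and was not called. Of the 12 genes, 0 passed the test of the difference between responses at 1 µM. EIF2AK1, another of the kinases, rose at 1 µM by 0.32 in resistant and by 0.50 in parental cells, and both calls were lost under median scaling. EIF2B2, a subunit of the exchange factor that phosphorylated eIF2 blocks, fell by 0.50 ± 0.09 (adjusted p = 0.000218) in resistant and by 0.44 ± 0.09 (adjusted p = 0.000615) in parental cells at 1 µM. The activity of these kinases was not measured.

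Between basal lines 7.24% of all genes were higher and 8.25% lower in resistant cells. Median scaling turned the counts of several short lists downward, as it did those of all 12547 genes (316 higher and 3856 lower). Of 8 further cytosolic synthetases and scaffold genes, 0 were higher and 4 lower (HARS1, KARS1, RARS1 and VARS1) in resistant than in parental basal cells, by 0.29 to 0.42 (0 and 5 under median scaling). Of 16 mitochondrial synthetases, 1 was higher and 2 were lower in that comparison. HARS2 was lower by 0.72 ± 0.10 (adjusted p = 3.22e-06). Under median scaling 0 were higher and 9 lower, and SARS2, the higher one before, was at 0.29 (adjusted p = 0.162). Of 7 further amino acid transporters, 1 was higher and 1 lower there (1 and 4 under median scaling). SLC7A8 (LAT2), a second partner of SLC3A2, was higher by 0.78 ± 0.12 (adjusted p = 1.71e-05). Of 9 genes of the chaperone branch of the endoplasmic reticulum, 2 were higher and 0 lower there. Under median scaling 1 was higher and 4 were lower, and XBP1, called before, was at 0.0070 (adjusted p = 0.974). HSPA5 (BiP), the main chaperone there, was higher by 1.06 ± 0.10 (adjusted p = 8.36e-09) at basal and by 0.77 ± 0.10 (adjusted p = 1.63e-06) at 1 µM. At 1 µM against basal, DNAJB9 and XBP1 of that branch rose and SDF2L1 fell in both lines. The fall of SDF2L1 was 0.62 ± 0.12 (adjusted p = 0.000242) in resistant and 0.98 ± 0.12 (adjusted p = 2.74e-07) in parental cells. Under median scaling the rises in DNAJB9 did not pass.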

How the data were processed

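Total RNA from 18 SKBR3 samples was labelled as biotin cRNA and hybridised to Illumina bead arrays, per the labels' protocols, and exported with BeadStudio, per the submitters' processing notes (no version is given in the sources used here). Before normalisation, the deposited values are 1 linear probe intensity per array, with no background subtraction, detection p-value or control probe beside them, for 48803 probes (48697 are stated in the labels). The deposited normalized table, a linear intensity with equal quantiles on all arrays, served as an alternative. Groups came from the labels' line and treatment.

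Signals were background-corrected (normexp, offset 50), quantile-normalised and log2-transformed with limma 3.58.1 in R 4.3.3. A probe was kept if above an array's background cut, set to leave 5% of background above it (share 0.05), on at least 3 of the 18 arrays, which left 22706. GEO's platform annotation, updated through gene identifiers to RefSeq symbols, gave 28098 probes 1 symbol, 13 several and 20692 none. The brightest kept probe stood for a gene. A model with 1 mean per group on all 18 arrays gave 11 comparisons, each adjusted by the Benjamini-Hochberg method over 12547 genes, at a threshold of 0.05. The script was tested on simulated data. Promoter stretches came from RefSeq GRCh38.p14. The number of arrays limits the precision.

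Values on every array are given for ATF4, ASNS and DDIT3 and for genes past the threshold with a change of at least 0.5 in some comparison; others are given by mean, range or count. The listed genes, the related lists and the tests were chosen with earlier results of these data known. The alternatives were the authors' normalized table, no background correction, median scaling, no filter, a filter of 9 arrays, the mean of a gene's probes, the replicate number as a block, and leaving out each array in turn. Replicate numbers were not taken to pair arrays: the correlations of same-numbered deviations ran from -0.20 to 0.08.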

Additional observations from a re-analysis of the deposited data

Results flagged for a closer look

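For 2 of the listed genes the response to 1 µM lapatinib differed between the lines in the test of the difference itself. For ASNS the difference of responses, resistant minus parental, was -0.69, with a change of -0.04 in resistant and 0.66 in parental cells. For DDIT4 it was -0.59, with -0.20 in resistant and 0.39 in parental cells. Both calls were lost under median scaling, with values of -0.48 for ASNS and -0.37 for DDIT4. Leaving out 1 array lost the ASNS call for 3 of the 12 arrays and the DDIT4 call for 11 of the 12. A second, dimmer ASNS probe gave a difference of -0.30.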

How the results depend on the processing

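Of the 66 calls for the listed genes, 22 held under every alternative and 33 under all but median scaling. The upward ones of the 22 were PHGDH and PSAT1 in resistant against parental cells at 0.1 µM. Median scaling could hardly undo most of the falls among them. The authors' normalized table, no background correction and the filter of 9 arrays changed no count by more than 1.5 times. Median scaling changed the count of called listed genes to 18 in parental cells at 0.1 µM (10 before), to 0 between 1 and 0.1 µM in parental cells (3 before), to 5 in resistant cells at 0.1 µM (3 before), to 16 between basal lines (5 before) and to 0 for the difference of responses at 1 µM (2 before). Of all 12547 genes, 240 rose and 3405 fell under it in parental cells at 0.1 µM (744 and 670 before). From 0.1 to 1 µM there, 226 rose and 152 fell (388 and 304 before). In resistant cells at 0.1 µM 156 rose and 886 fell (504 and 414 before). Between basal lines 316 were higher and 3856 lower (909 and 1035 before). The difference of responses at 1 µM had 65 and 8 (39 and 47 before). Without a filter the counts of called listed genes were 6 in parental cells at 0.1 µM and 1 for that difference. With the mean of a gene's probes they were 1 for parental 1 against 0.1 µM and 0 for the difference. Leaving out each array in turn gave 3 to 5 in parental cells at 0.1 µM, 8 to 13 at 1 µM, and 0 to 3 between these doses, with 0 without parental 0.1 µM replicate 2 or parental 1 µM replicate 3. In resistant cells it gave 1 to 3, 5 to 6 and 2 to 3 for the same comparisons. Between the lines it gave 3 to 5 at basal, 10 to 13 at 0.1 µM and 8 to 10 at 1 µM, and for the differences of responses 0 to 0 at 0.1 µM and 0 to 1 at 1 µM, with 0 without resistant 1 µM replicate 1. Signs turned under median scaling for AARS1 (-0.32), SHMT2 (-0.36), SLC7A1 (-0.053) and SLC7A5 (-0.36) between basal lines, CEBPB between lines at 0.1 µM (-0.30) and EPRS1 in parental cells at 1 µM (-0.054), and with the mean of probes for PCK2 in parental cells at 1 µM (-0.36); the cause was not tested. With the replicate number as a block the difference of responses at 1 µM had 1 call and parental cells at 0.1 µM had 9; 0 same-numbered pairs correlated above 0.1, and 5 of 18 arrays correlated best with their own number. Signal over background limits CHAC1 and SLC1A4, which were above it on 6 and 7 arrays.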
